A study of Mus musculus with 6 samples.

Results

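Messenger RNA of 9 genes of amyloid precursor processing and tau was measured in the brains of mice fed a liver-derived diet and of mice fed a control diet. The genes are App, Aplp1, Aplp2, Adam10, Bace1, Psen2, Ncstn, Mapt and Ide. They were chosen by symbol, through the Ensembl identifier of each row in GENCODE M21 (mouse build GRCm38), and are 9 of the 60354 features in the count files. The study asked how long-term ingestion of PLDP, a porcine liver decomposition product made with a protease, acts on memory and emotion in mice. All mice were male C57BL/6NCrSlc, an inbred wild-type strain with no transgene and no plaque or tangle pathology of its own, and were 16 weeks old when the diets began. PLDP mice (n = 3, mice 17, 22 and 26) ate a purified diet with 20% PLDP for 16 weeks, and control mice (n = 3, mice 2, 5 and 10) ate the same kind of diet without PLDP and with adjusted calories. Both groups then went through the same behavioral tests, during which no PLDP was given, and RNA was taken from the whole brain on the day after the last test.

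App encodes a membrane protein that is expressed by neurons and by most other cells of the brain, and Aplp1 and Aplp2 encode its relatives. Cleavage of App by alpha-secretase, chiefly Adam10, releases a soluble ectodomain and cuts within the amyloid-beta sequence. Cleavage by beta-secretase, Bace1, leaves a stub from which gamma-secretase, a complex that can hold the presenilin Psen2 with nicastrin (Ncstn) and other subunits, frees amyloid-beta. Insulin-degrading enzyme, Ide, breaks amyloid-beta down. Tau, encoded by Mapt, is a microtubule-binding protein of axons whose phosphorylated form builds the tangles of Alzheimer's disease.

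The sequences below are shown because they show where App stands apart from its relatives and what the family shares. A count per gene does not separate the transcripts of a gene. All were read on the coding strand from GENCODE M21 transcripts on GRCm38. The first is the part of App that encodes mouse amyloid-beta of 42 residues, 126 bases joined from exons 16 and 17 within chr16:84962794-84965720 (minus strand), with capitals on the last 2 codons, which the shorter major form of the peptide lacks. A search for its opening residues (DAEF) alone found them in 5 of the 6 complete coding transcripts of App and in none of Aplp1 or Aplp2.
App amyloid-beta: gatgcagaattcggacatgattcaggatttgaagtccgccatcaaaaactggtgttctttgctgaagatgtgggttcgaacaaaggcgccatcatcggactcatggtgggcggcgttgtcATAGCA

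The cytoplasmic tail, by contrast, is shared by the family. The next 3 sequences encode 16 residues of it in App (exon 18, chr16:84955340-84955387), Aplp1 (exon 17, chr7:30435299-30435346) and Aplp2 (exon 17, chr9:31150880-31150927), all on the minus strand. Capitals mark the codons of the NPXY-type motif that adaptor proteins bind. Of the 48 bases, App shares 30 with Aplp1 and 35 with Aplp2, and Aplp1 shares 33 with Aplp2. At the level of residues, 10, 12 and 11 of the 16 are identical in the same pairs.
App tail: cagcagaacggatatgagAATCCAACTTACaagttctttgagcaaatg
Aplp1 tail: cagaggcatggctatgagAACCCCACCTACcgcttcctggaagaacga
Aplp2 tail: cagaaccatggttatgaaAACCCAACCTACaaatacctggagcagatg

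The depth was similar in all libraries. Totals were between 18797061 and 23938729 counts per mouse, and mitochondrial genes took between 2.53% and 2.80% of them. Of all features, 18580 passed the filter on low counts and were tested with edgeR's quasi-likelihood test, and 1598 had an unadjusted p under 0.05. The study's own threshold has the same value, without a statement on adjustment. The called features were 8.6% of those tested, with 4.91% higher and 3.69% lower in PLDP mice. Only 6 features, or 0.0323%, kept an adjusted p under 0.05 (Benjamini-Hochberg over all features tested), a count that became 182 without PLDP mouse 17, 0 without control mouse 5, 180 with no filter on low counts and 75 with the likelihood ratio test. All p-values below are from this fit unless another test is named. Separate mice were sequenced, but nothing in the sources used here says how the 3 per diet were picked from the larger groups, so p-values measure the spread between these 6 libraries.

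All 9 genes passed the filter. Together they took between 76541 and 98690 counts per mouse, which was 0.416% to 0.421% of the total in control mice and 0.407% to 0.412% in PLDP mice. Levels are given in CPM, counts relative to the library size after TMM scaling, and the 9 genes are compared with one another only per kb of exon length. On that scale Aplp1 was the most abundant, at 405.6 ± 10.9 CPM per kb (SD, n = 6). App followed at 115.5 ± 4.63 and Aplp2 at 104.1 ± 2.46 CPM per kb, and these neighbours overlapped between mice. Mapt stood next at 70.1 ± 1.78 CPM per kb. The secretases were lower, with Adam10 at 16.4 ± 0.41, Bace1 at 14.6 ± 0.41 and Ncstn at 12.03 ± 0.66 CPM per kb. Ide, at 5.52 ± 0.28, and Psen2, at 4.04 ± 0.18 CPM per kb, were the least abundant. Apart from App and Aplp2, no neighbours in this order overlapped over the 6 mice. The order of 2 pairs rested on the choice of length, since by the longest transcript Ncstn (15.9) stood above Bace1 (15.3) and Psen2 (8.67) above Ide (8.35).

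**Figure D1:**
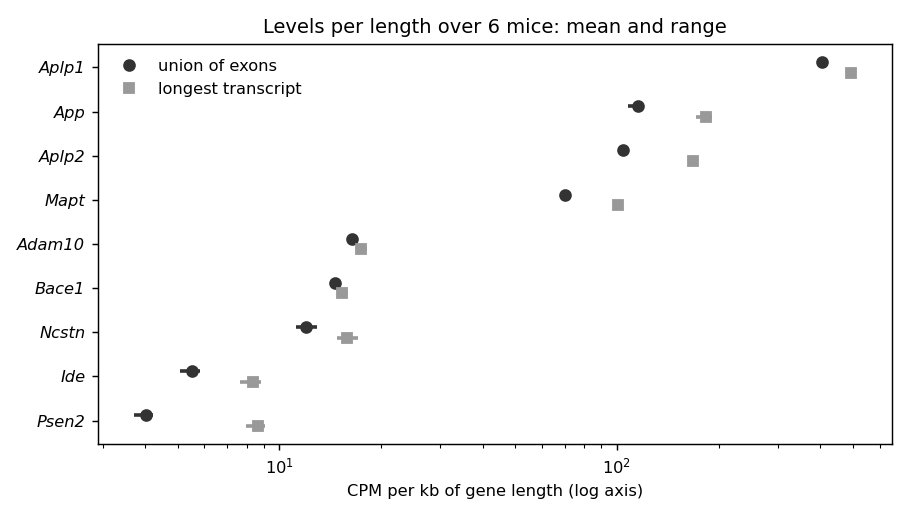
Mean level per kb of gene length (CPM per kb, logarithmic axis) of each gene over 6 mice, with lines from the lowest to the highest mouse, by the union of exons (circles) and by the longest transcript (squares). Aplp1, at 405.6 CPM per kb of exon union, was 3.51-fold above App, and App and Aplp2 are the only neighbours by exon union whose lines overlap. By the longest transcript Aplp1 was at 495.0 and App at 183.8 CPM per kb, so the size of the gap between them rests on the choice of length.

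The diets differed little in these genes. Log2 fold changes, PLDP minus control, were between -0.10 and 0.06, with a median of -0.01, against a median of -0.0006 over all features tested. Their median size regardless of sign was 0.03, against 0.07 over all features and 0.05 over the 9118 features whose mean CPM was at least that of Psen2. Of the 9 genes, 3 were higher and 6 lower in PLDP mice. One gene, App, passed the unadjusted threshold, and none passed after adjustment. The levels of the diets did not overlap for 2 genes, App (lower) and Mapt (higher), where 14.2% of all features tested did not overlap. Among those 9118 features, 10.1% passed the unadjusted threshold. The standard errors of the 9 log2 fold changes were between 0.03 and 0.08, and the widest 95% interval reached from -10.3% to 12.7% (Psen2).

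**Figure D2:**
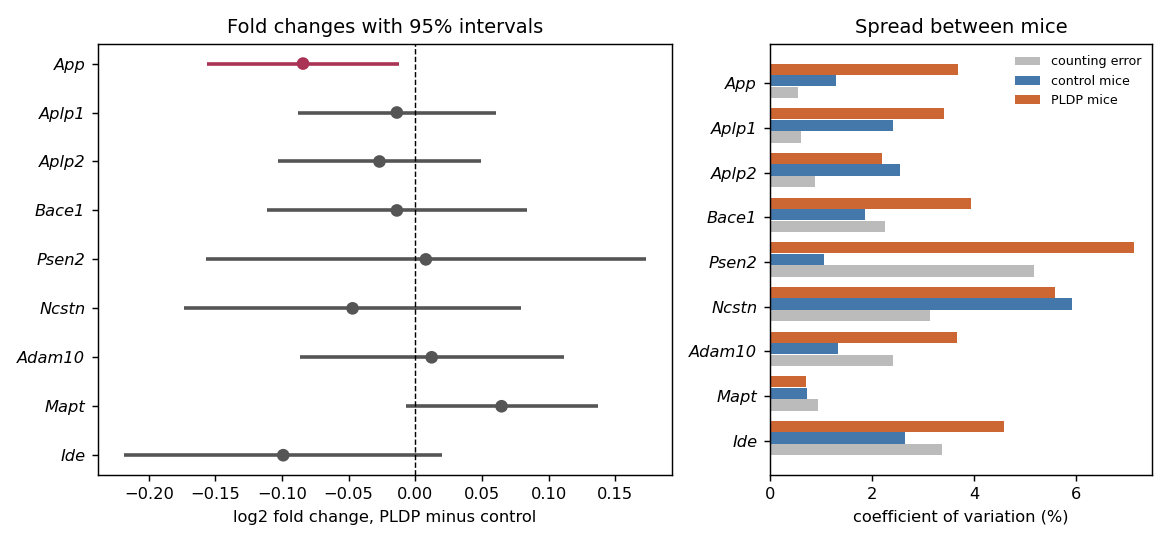
Left, log2 fold change (PLDP minus control) of each gene with its 95% interval from edgeR's quasi-likelihood fit, with App, the gene with an unadjusted p under 0.05, in red. Right, coefficient of variation (%) between the 3 mice of each diet beside that expected from counting alone; the interval of App runs from -0.16 to -0.01, and those of the other 8 genes include 0.

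App (ENSMUSG00000022892, chr16:84949685-85173766, minus strand) was measured at 1559, 1552 and 1522 CPM in control mice 2, 5 and 10. In PLDP mice 17, 22 and 26 it was at 1398, 1504 and 1469 CPM. All PLDP mice lay below all control mice, with mouse 17 the lowest. The means were 1545 ± 20.0 and 1457 ± 53.8 CPM (SD, n = 3 each), a difference of -5.67%. The log2 fold change was -0.08 (SE 0.03, unadjusted p = 0.0243, adjusted p = 0.494), with a 95% interval of -10.3% to -0.852%. An exact two-sided permutation test of the CPM gave p = 0.1, the smallest that 3 mice against 3 can give. At this depth counting error was small, 0.560% for App, against a coefficient of variation between mice of 1.29% in controls and 3.69% in PLDP mice. The unadjusted call did not survive the loss of mouse 17 (log2 fold change -0.06, unadjusted p = 0.0538), control mouse 2 (unadjusted p = 0.0890) or control mouse 5 (unadjusted p = 0.0704), nor edgeR's likelihood ratio test (unadjusted p = 0.0769). In every one of these fits App was lower in PLDP mice.

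Aplp1 (ENSMUSG00000006651, chr7:30434982-30445535, minus strand), whose product is found mainly at neuronal membranes, was at 1234, 1257 and 1198 CPM in control mice and 1266, 1190 and 1197 CPM in PLDP mice. The diets overlapped over almost their whole range. Mouse 17, the lowest for App, was the highest for Aplp1. The means of Aplp1 were 1230 ± 29.8 and 1218 ± 41.6 CPM, and the 95% interval of the difference was -5.92% to 4.28% (unadjusted p = 0.699, adjusted p = 0.953). Aplp2 (ENSMUSG00000031996, chr9:31149557-31211815, minus strand), the broadly expressed relative, was at 632.5, 601.2 and 619.0 CPM in control mice and 594.2, 620.6 and 603.7 CPM in PLDP mice. Its levels overlapped as well, with an interval of -6.88% to 3.46% around a log2 fold change of -0.03 (unadjusted p = 0.466, adjusted p = 0.890).

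**Figure D3:**
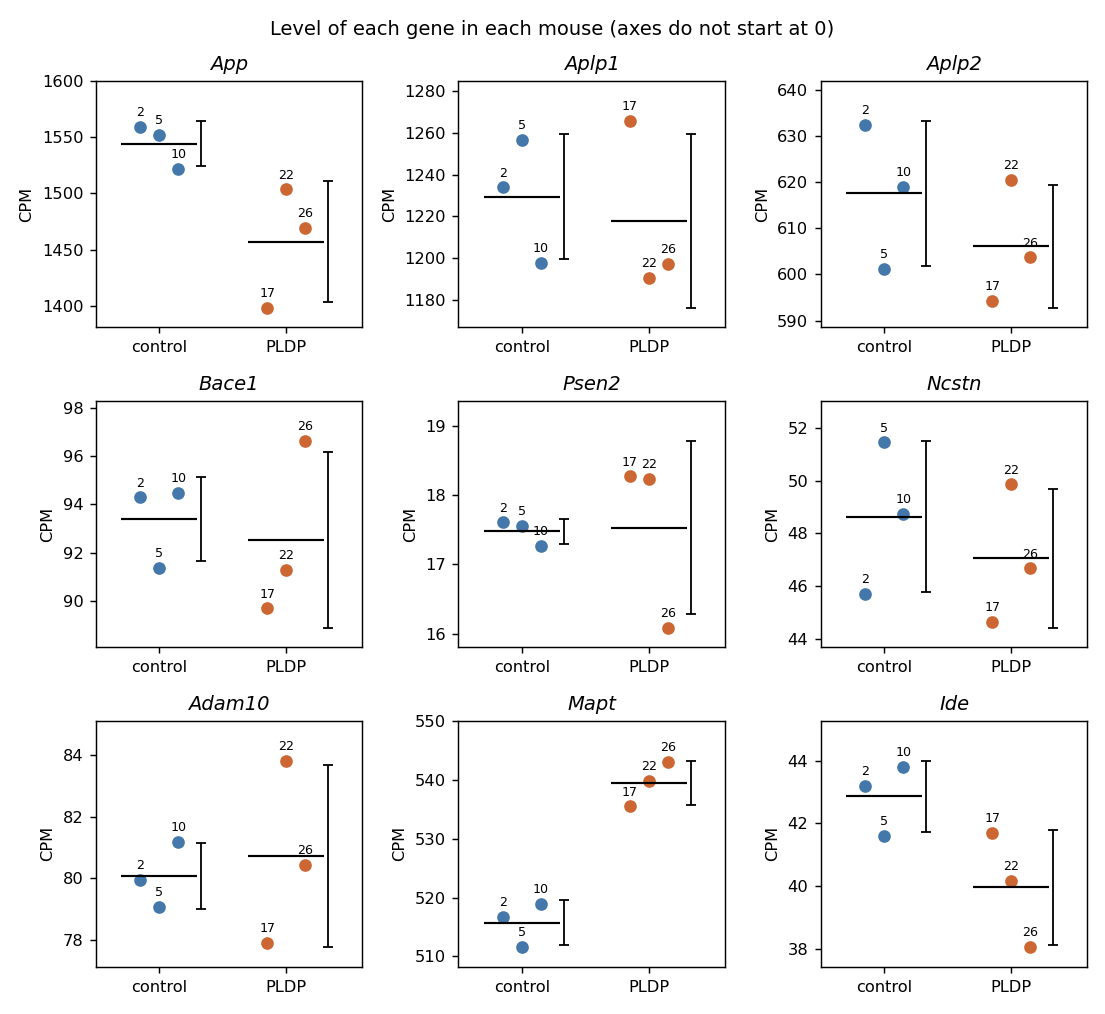
Level (CPM) of each of the 9 genes in each mouse, labelled by mouse number, with the mean of each diet as a horizontal line and the SD as a bar beside it; the axes do not start at 0. The points of the diets separate for App (lower in PLDP mice, 1457 against 1545 CPM) and for Mapt (higher, 539.4 against 515.7 CPM), and overlap for the other 7 genes.

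The share of each relative within the family does not depend on the scaling between libraries. These ratios were chosen after the levels had been seen. App made up 45.5%, 45.5% and 45.6% of the counts on App, Aplp1 and Aplp2 in control mice 2, 5 and 10. It made up 42.9%, 45.4% and 44.9% in PLDP mice 17, 22 and 26. The control mice were nearly alike, and every PLDP mouse lay below them, mouse 22 by the least. The mean share was 45.5% ± 0.036 in control mice and 44.4% ± 1.31 in PLDP mice, a difference of -1.14 percentage points (exact two-sided permutation p = 0.1, its smallest value). App had been seen to separate the diets before the share was chosen, so this p is no separate support for that difference. Most of that difference rested on mouse 17, without which it was -0.40 percentage points. The shares of Aplp1 (36.3% and 37.1%, exact permutation p = 0.6) and Aplp2 (18.2% and 18.5%, exact permutation p = 0.7) overlapped between the diets.

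Adam10 (ENSMUSG00000054693, chr9:70678997-70780229, plus strand), the main neuronal alpha-secretase, ranged from 79.1 to 81.2 CPM in control mice and from 77.9 to 83.8 CPM in PLDP mice. The means were 80.1 ± 1.06 and 80.7 ± 2.96 CPM, with an interval of -5.83% to 8.02% for the difference (unadjusted p = 0.796, adjusted p = 0.967). Bace1 (ENSMUSG00000032086, chr9:45838580-45864399, plus strand), the beta-secretase, ranged from 91.4 to 94.5 CPM in control mice and from 89.7 to 96.6 CPM in PLDP mice. Its interval was -7.43% to 5.98% (unadjusted p = 0.769, adjusted p = 0.963). Genes on the opposite strand share 32.5% of the exon bases of Bace1, and the one that shares the most is Rnf214, which had 1097 counts on average. Whether the counting used strand is not given in the sources used here, and without it reads from both genes over those bases cannot be told apart.

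Psen2 (ENSMUSG00000010609, chr1:180227004-180263438, minus strand), a catalytic presenilin of gamma-secretase, was at 17.3 to 17.6 CPM in control mice. In PLDP mice it was at 18.3, 18.2 and 16.1 CPM, so the controls fell between them. Both means were 17.5 CPM. With 301 to 435 counts per mouse, Psen2 had the widest interval of the 9 genes, -10.3% to 12.7% (unadjusted p = 0.920, adjusted p = 0.987), and a counting error of 5.18%. Ncstn (ENSMUSG00000003458, chr1:172066013-172082795, minus strand), the substrate-binding subunit of the complex, was at 48.6 ± 2.87 CPM in control mice and 47.0 ± 2.63 CPM in PLDP mice. Its interval was -11.3% to 5.68% (unadjusted p = 0.444, adjusted p = 0.882). Of its exon bases, 4.91% are shared with Copa on the opposite strand, which had 4757 counts on average.

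Mapt (ENSMUSG00000018411, chr11:104231390-104332090, plus strand) was at 516.7, 511.6 and 518.9 CPM in control mice and at 535.5, 539.8 and 543.0 CPM in PLDP mice. The diets were clearly apart, and the mice of each diet were close together. The means were 515.7 ± 3.79 and 539.4 ± 3.80 CPM (SD, n = 3 each), a difference of 4.59%. The spread of Mapt between mice, 0.734% in controls and 0.704% in PLDP mice, was below the 0.944% expected from counting alone. The edgeR model, which takes its error from genes of similar level, gave a log2 fold change of 0.06 (SE 0.03, 95% interval -0.502% to 9.95%), with an unadjusted p of 0.0749 and an adjusted p of 0.627. Mapt thus did not pass the threshold, and the exact two-sided permutation test gave p = 0.1, its smallest value. Without mouse 17 the unadjusted p was 0.0310. Within each mouse, 33.1, 32.95 and 34.1 counts of Mapt stood against 100 counts of App in control mice, and 38.3, 35.9 and 37.0 in PLDP mice. The ratio was higher in all PLDP mice, at 37.1 ± 1.203 against 33.4 ± 0.62. It was chosen after the levels had been seen, and since Mapt was higher and App lower in every PLDP mouse it had to separate the diets, so no test is given.

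Ide (ENSMUSG00000056999, chr19:37268743-37337852, minus strand), a metalloprotease that also degrades insulin, was at 43.2, 41.6 and 43.8 CPM in control mice and at 41.7, 40.2 and 38.1 CPM in PLDP mice. Mouse 17 lay just above control mouse 5, and the other PLDP mice lay below all controls. The means were 42.9 ± 1.13 and 39.97 ± 1.83 CPM, a difference of -6.74% with an interval of -14.1% to 1.42%. The log2 fold change of -0.10 was the largest of the 9 in size and did not pass the threshold (unadjusted p = 0.0980, adjusted p = 0.648). Only without mouse 17 was the unadjusted p under the threshold (log2 fold change -0.13, unadjusted p = 0.0339).

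The other genes of the pathway were described through 7 lists with 99 genes, of which 98 were tested. In all, 9 rose and 5 fell at the unadjusted threshold, 14.3% of those tested against 8.6% of all features, and none passed after adjustment. The count of 14 varied with single mice, as did the share called over all features. It was 7, 6 and 9 without control mice 2, 5 and 10, where 5.95%, 6.49% and 8.47% of all features were called. It was 23 without PLDP mouse 17 and 5 without PLDP mouse 26, where the share over all features was 12.5% and 7.24%. DESeq2 called 8, and 4.98% of all features. By list, the share called in either direction was 0% of the other secretase genes, 25% of the clearance genes, 19.0% of the adaptors and trafficking genes, 21.4% of the tau kinases, 6.67% of the phosphatase subunits, 7.14% of the microtubule-associated proteins and 14.3% of the substrates and partners, each of 8 to 21 genes. Among the 8 other secretase genes, 1 was higher and 7 lower, the median log2 fold change was -0.03, and none passed (1 lower without PLDP mouse 22). List medians were small and moved with single mice. Over the fits on 5 mice the median was between -0.06 (without control mouse 5) and 0.01 (without control mouse 2) for the other secretase genes and between -0.007 (without control mouse 2) and 0.02 (without PLDP mouse 26) for the clearance genes. It was between -0.02 (without PLDP mouse 26) and 0.02 (without PLDP mouse 17) for the adaptors, between -0.02 and 0.06 for the microtubule-associated proteins and between -0.001 and 0.05 for the substrates, from the same pair of fits. The median of the tau kinases stayed above 0, between 0.03 (without control mouse 10) and 0.08 (without PLDP mouse 17), and that of the phosphatase subunits below 0, between -0.06 and -0.02 without the same mice.

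Of 12 other genes of amyloid-beta clearance, 2 rose and 1 fell, with a list median of 0.01, and a single gene was called without PLDP mouse 22 or PLDP mouse 26. Ece1, an endothelin-converting enzyme that can also cleave amyloid-beta, was at 63.0, 61.3 and 66.6 CPM in control mice and 67.2, 74.8 and 71.5 CPM in PLDP mice. It rose by 0.16 on the log2 scale (SE 0.05, unadjusted p = 0.00782, adjusted p = 0.381), and the call held in 5 of the 6 fits on 5 mice. Mme, which encodes neprilysin, a major amyloid-beta-degrading peptidase, fell by 0.25 (unadjusted p = 0.0350, adjusted p = 0.533), and the call held in 2 of 6. Its levels overlapped, at 11.1, 13.6 and 12.2 CPM in control mice and 9.67, 11.7 and 9.62 CPM in PLDP mice. Ece2, a relative of Ece1, rose by 0.51 (SE 0.23, unadjusted p = 0.0369, adjusted p = 0.539), from about 31 counts per mouse. Genes on the same strand share 57.5% of its exon bases, Gm49333 the most. The value of Ece2 is therefore uncertain, and its call held in 1 of the 6 fits. Clu, a secreted chaperone that carries amyloid-beta, had a log2 fold change of 0.00 (unadjusted p = 0.998).

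Among 21 adaptors and trafficking genes of App, 2 rose and 2 fell, with a median of -0.01. The 4 calls became 0 without control mouse 5 and 2 without control mouse 2, PLDP mouse 22 or PLDP mouse 26. Vps35, a core subunit of the retromer that returns App and its sorting receptors from endosomes, was at 146.0, 148.9 and 141.7 CPM in control mice and 130.1, 135.3 and 137.4 CPM in PLDP mice. It fell by 0.12 on the log2 scale (SE 0.04, unadjusted p = 0.0134, adjusted p = 0.447). Rtn4, a reticulon that can bind Bace1, fell by 0.10 (unadjusted p = 0.0142, adjusted p = 0.448). Both calls held in 5 of the 6 fits on 5 mice. Genes on the opposite strand share 18.4% of the exon bases of Rtn4, and the one that shares the most is Eml6. Apba2, an adaptor that binds the App tail, rose by 0.09 (unadjusted p = 0.0414, adjusted p = 0.561), and Gga1, which sorts Bace1 in the Golgi and endosomes, rose by 0.10 (unadjusted p = 0.0455, adjusted p = 0.566). Those calls held in 1 and 0 of the 6 fits. Rtn3, a relative of Rtn4, had a log2 fold change of -0.01 (unadjusted p = 0.772, adjusted p = 0.963).

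Of 15 tau kinase genes, 14 were tested, all but Ttbk2, and 12 of them were higher in PLDP mice, with a median of 0.05, and 3 rose. Of all features tested, 49.8% were higher. This list, like the others, was chosen with earlier results of these data known. Mark2, a kinase that phosphorylates the repeats of tau, was at 83.0, 81.9 and 83.5 CPM in control mice and 89.7, 93.4 and 94.9 CPM in PLDP mice. The diets did not overlap. Mark2 rose by 0.16 (SE 0.05, unadjusted p = 0.00227, adjusted p = 0.293), and the call held in all 6 fits on 5 mice. Ttbk1, a neuronal tau-tubulin kinase, rose by 0.13 (unadjusted p = 0.0140, adjusted p = 0.448), and Mark3, a relative of Mark2, by 0.12 (unadjusted p = 0.0257, adjusted p = 0.497). The number of kinases called was 1 without control mouse 2 or PLDP mouse 26, 2 without control mouse 10 or PLDP mouse 22, and 6 without PLDP mouse 17. Ttbk1 was called in 4 and Mark3 in 2 of those fits. Cdk5r2, a neuronal activator of Cdk5, had a log2 fold change of 0.05 (unadjusted p = 0.299, adjusted p = 0.815).

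Of all 18580 features tested, 9333 were lower in PLDP mice. Subunits of protein phosphatase 2A, the main tau phosphatase, were lower for 13 of 15 genes, with a median of -0.04. Of these, 1 fell, the catalytic subunit gene Ppp2cb, by 0.10 (SE 0.04, unadjusted p = 0.0361, adjusted p = 0.538), and it was called in 2 of the 6 fits on 5 mice. No subunit was called without control mouse 2, control mouse 5 or PLDP mouse 26, and 2 were lower without PLDP mouse 17 or PLDP mouse 22. The regulatory subunit gene Ppp2r2c had a log2 fold change of -0.04 (unadjusted p = 0.341, adjusted p = 0.835). Of 14 other neuronal microtubule-associated proteins, 1 rose, Map1a, by 0.09 (unadjusted p = 0.0182, adjusted p = 0.457), and the list median was 0.01. Map1a was at 1083, 1086 and 1087 CPM in control mice and 1126, 1145 and 1185 CPM in PLDP mice, a separation of the same kind as that of Mapt, and its call held in 3 of the 6 fits. Of that list, 3 were called higher and 2 lower without PLDP mouse 17, 2 higher without PLDP mouse 22 and 0 without control mouse 2, control mouse 5 or PLDP mouse 26. Among 14 other substrates and partners of the secretases, Sez6l, a Bace1 substrate, rose by 0.10 (unadjusted p = 0.0411, adjusted p = 0.560), with overlapping diets and a call that held in 2 of the 6 fits. Lrrn1, a neuronal leucine-rich repeat membrane protein, fell by 0.13 (unadjusted p = 0.0180, adjusted p = 0.456), and its call held in 5. The median of that list was 0.02, and 3 of its genes were called higher and 1 lower without PLDP mouse 17 and 0 without control mouse 10. Sez6l2, a relative of Sez6l, had a log2 fold change of 0.07 (unadjusted p = 0.0587, adjusted p = 0.601).

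**Figure D4:**
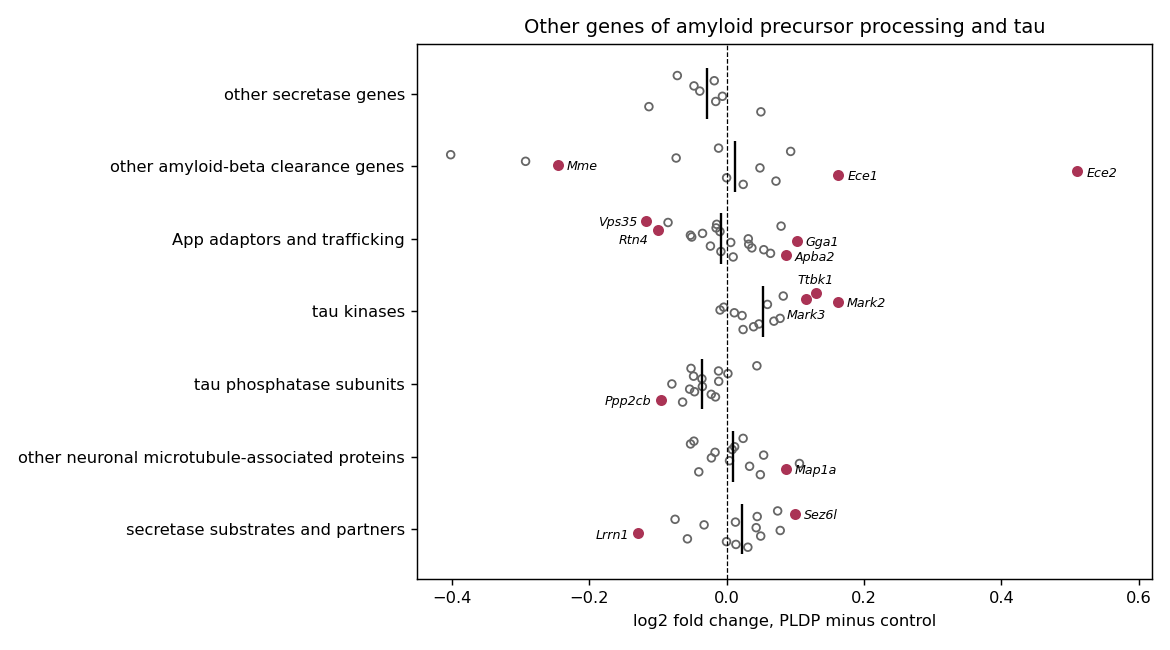
Log2 fold change (PLDP minus control) of the 98 tested genes of 7 lists of amyloid precursor processing and tau, 1 circle per gene, with filled and named circles for an unadjusted p under 0.05 and a vertical line at each list's median. The medians lie between -0.04 (tau phosphatase subunits) and 0.05 (tau kinases), and Ece2, at 0.51, rests on about 31 counts per mouse.

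The make-up of the libraries differed between the diets in markers of brain regions and cell types. In a whole-brain sample, fewer cells of a type and less RNA per cell cannot be told apart. Of all features tested, 4.91% were called higher and 3.69% lower in PLDP mice at the unadjusted threshold. The summed level of 10 brainstem and spinal cord markers was 147.2 to 160.3 CPM in control mice and 77.2 to 115.4 CPM in PLDP mice, and all 10 fell at the unadjusted threshold, led by Slc6a5 (6 without PLDP mouse 22). For 10 markers of cortical and hippocampal projection neurons the sum was 3511 to 3603 CPM in control mice and 3776 to 3833 CPM in PLDP mice, and 4 rose, led by Camk2a (2 without control mouse 10). Mapt, the projection neuron sum and the endothelial sum were all higher in every PLDP mouse than in any control mouse. App, the brainstem sum and the choroid plexus sum were all lower, the last only narrowly (at most 756.1 against at least 757.1 CPM). Within the PLDP mice some of the orders matched and others did not. The projection neuron sum was 3776, 3833 and 3789 CPM in mice 17, 22 and 26. That was the order of App but not of Mapt, which was highest in mouse 26. The brainstem sum was 115.4, 77.2 and 108.0 CPM in mice 17, 22 and 26, so it was highest in mouse 17, where App was lowest. Most of its markers were highest in mouse 17, but not all. Slc6a5, a large part of the sum, was at 31.0, 22.4 and 32.7 CPM in mice 17, 22 and 26. The choroid plexus sum was 594.4, 756.1 and 698.9 CPM in the same mice, the order that App followed, whereas in control mice (757.1, 814.9 and 800.1 CPM in mice 2, 5 and 10) its order was not that of App. The part of library make-up in either difference was not tested.

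Oligodendrocyte markers summed to 5382 to 5784 CPM in control mice and 5010 to 5632 CPM in PLDP mice, and 4 of 10 fell (1 without control mouse 5, 2 without PLDP mouse 22). Choroid plexus markers were at 757.1 to 814.9 and 594.4 to 756.1 CPM, with 2 of 8 lower (1 without PLDP mouse 17 or control mouse 5, 5 without PLDP mouse 22), and endothelial markers at 196.9 to 202.3 and 207.8 to 215.3 CPM, with 2 of 8 higher (1 without control mouse 5). Pan-neuronal markers, of which 9 of 10 were found in the files, overlapped at 6322 to 6555 and 6417 to 6493 CPM, with 1 higher and 1 lower (1 higher and 2 lower without PLDP mouse 17, and a single gene called in each of the other 5 fits). Astrocyte markers overlapped at 4050 to 4142 and 4073 to 4152 CPM, with 1 of 10 lower (1 higher and 3 lower without PLDP mouse 17, 0 without control mouse 10 or PLDP mouse 26). Microglial markers were at 385.1 to 400.9 and 375.4 to 390.6 CPM, with 1 of 9 tested lower (0 without control mouse 5 or PLDP mouse 22) and Itgam at no more than 1 count in any mouse. Granule cell markers (970.4 to 1146 and 976.6 to 1142 CPM, 1 of 8 higher, and 0 higher and 2 lower without control mouse 5), blood genes (325.8 to 584.6 and 400.4 to 492.8 CPM, 0 of 5, and 4 lower without control mouse 5) and immediate early genes (768.6 to 879.9 and 729.0 to 1091 CPM, 3 of 10 higher) also overlapped in their sums. No granule cell marker was called without control mouse 2 or PLDP mouse 22. Without control mouse 10, 2 were called higher, and without PLDP mouse 17, 1 was called higher and 2 lower. The count of immediate early genes was 9 without PLDP mouse 17, 1 without control mouse 2 and 0 without control mouse 10, PLDP mouse 22 or PLDP mouse 26. By list, the share called in either direction was 40% of the oligodendrocyte, 25% of the choroid plexus and of the endothelial and 22.2% of the pan-neuronal markers. It was 10% of the astrocyte, 11.1% of the microglial and 12.5% of the granule cell markers, near the 8.6% of all features. It was 0% of the blood and 30% of the immediate early genes.

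**Figure D5:**
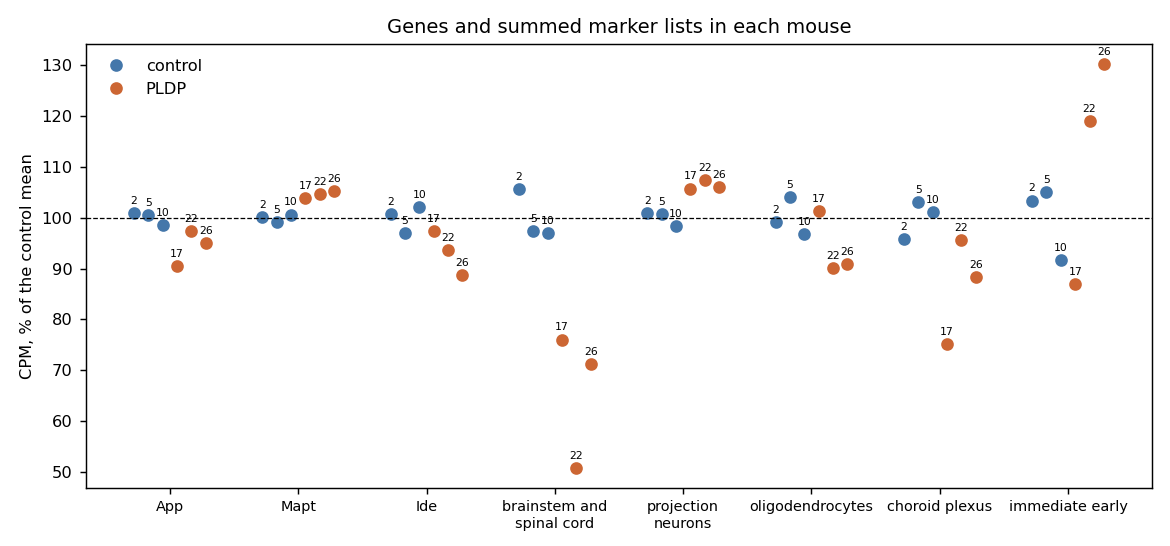
Level of App, Mapt and Ide and summed level of 5 marker lists in each mouse, as CPM in percent of the control mean, with mouse numbers beside the points. The brainstem and spinal cord sum separates the diets by far more (77.2 to 115.4 against 147.2 to 160.3 CPM) than App or Mapt do.

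The genes whose level over the 6 mice was most like that of App, among 10213 named genes with at least 10 CPM, were Hp1bp3 (Pearson r = 0.992 of log2 CPM), Sec22b (r = 0.991) and Wsb1 (r = 0.991). Those most like Mapt were Ptprj (r = 0.997), Slc25a25 (r = 0.993) and the tau kinase gene Mark2 (r = 0.989). These are descriptions over 6 mice that share depth, scaling and diet. As many as 215 genes had an r above 0.9 with App and 208 with Mapt.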

How the data were processed

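The authors deposited 1 table of raw read counts per gene and mouse, made from stranded poly(A) libraries. The submitters' processing notes name cutadapt 2.9, HISAT2 2.2.0, featureCounts 2.6.0, DESeq2 1.6.3 and the builds GRCm38 and GRCh38. The annotation used and the strand setting are not given in the sources used here. Symbols, positions and transcript sequences came from GENCODE M21 (GRCm38), in which 54777 of 55034 Ensembl identifiers were found; 5320 features carry only a number.

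Counts were tested in R 4.3.3 with edgeR 4.0.16 (filterByExpr by diet, minimum count 10 and minimum total 15, TMM, glmQLFit and glmQLFTest, diet as the only term). CPM used the counts of the features that passed the filter, after TMM. An unadjusted p under 0.05 was the threshold, with Benjamini-Hochberg values over all features tested. Alternatives were scaling by relative log expression, by the upper quartile or by library size alone, no filter, at least 10 counts in every mouse, DESeq2 1.42.0, voom in limma 3.58.1, edgeR's likelihood ratio test and leaving out each mouse. Python 3.11.15, pandas 2.3.3 and matplotlib 3.10.9 were used for summaries and plots. The fit was tested on simulated data with known 2-fold changes, which are larger than the changes of the 9 genes.

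The 9 genes and all lists were chosen with earlier results of these data known. From the other lists the text names genes with an unadjusted p under 0.05, up to 4 by smallest p, and the gene with the highest mean CPM, a rule for naming and not a ranking of levels; of the marker lists only the leading gene of 2 is named. The 3 genes most like App and Mapt were ranked among named genes with at least 10 CPM. Apoe, Prnp, Ttbk2 and Itgam were named after their values were seen. Certain items within these lists are not reported here.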

Additional observations from a re-analysis of the deposited data

How the results depend on the processing

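Depth limits Psen2, Ide and Ncstn most, and 3 mice per diet limit every gene. Under the 8 other scalings, filters and tests, no log2 fold change of the 9 genes changed sign. App stayed between -0.09 and -0.08 there and lost its call in the likelihood ratio test (unadjusted p = 0.0769), which left 0 of the 9 genes called. The p of Mapt was between 0.0510 and 0.146, and that of Ide between 0.0948 and 0.164. Of the pathway genes, DESeq2 called 8 against 14, and without 1 mouse between 5 and 23 were called. Leaving out 1 mouse left between 0 and 2 of the 9 genes called and between 2 and 4 higher in PLDP mice. It moved App between -0.11 and -0.06, Mapt between 0.06 and 0.07 and Ide between -0.13 and -0.07. The sign turned for Aplp1 (-0.042 to 0.0019; 0.00063 without PLDP mouse 22), Bace1 (-0.046 to 0.0077), Psen2 (-0.024 to 0.062; -0.0017 without control mouse 10 and -0.020 without PLDP mouse 17) and Adam10 (-0.018 to 0.038), all far from the threshold. The cause was not tested. Over all features the count of 1598 calls became 926 with DESeq2 and 2360 with no filter.

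With the length of the longest transcript, which is shorter than the union of exons, the levels were 495.0 (Aplp1), 183.8 (App), 168.4 (Aplp2), 100.4 (Mapt), 17.5 (Adam10), 15.3 (Bace1), 15.9 (Ncstn), 8.35 (Ide) and 8.67 CPM per kb (Psen2). No paired analysis was possible because the mouse numbers are not shared between the diets.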

Other observations

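Some genes of the pathway lists that the brain is known to express strongly were listed at low values. Apoe, a lipid carrier that astrocytes secrete in quantity, was listed at 1.299 to 2.03 CPM (216 counts over 6 mice). Prnp, which encodes the prion protein, a neuronal membrane protein, was at 0.907 to 1.299 CPM (141 counts over 6 mice). Ttbk2, a tau-tubulin kinase, had 0 counts in all mice, and 3 counts, the limit that a count of 0 allows, would be 0.0235 CPM over all 6 libraries (counting error only). In GENCODE M21 the exons of Apoe overlap no other gene. Genes on the same strand share 6.19% of the exon bases of Prnp, Prn the most, and 29.9% of those of Ttbk2, Cdan1 the most. The numbered features, whose genes the files do not name, held 0.628% to 0.655% of all counts. The cause of the low values was not tested, and no comparison above rests on these genes beyond their place in a list.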
